A study of Mus musculus with 11 samples.

Results

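The miR-193 and miR-365 family was followed in mouse liver. Its members are every arm of miR-193a, miR-193b and miR-365 (from the hairpins Mir365-1 and Mir365-2) that the count table lists, 7 names of 1281. They were chosen by name, with earlier results of these data known, and miR-365-3p, listed once under each of its hairpins, was counted once. Small RNA was sequenced from liver of 6 G4 p53-/- samples (telomerase-knockout mice with short telomeres that lack p53) and 5 G4 p53+/+ samples (telomerase-knockout mice with short telomeres and intact p53). All were untreated mice on a C57/B6 background, and livers with telomerase were not analysed here. The labels give no age and leave unsaid whether the libraries come from separate animals, so a p-value speaks only of the spread between libraries, which may be technical. Date and lane are the same throughout. The HA numbers, whose meaning is not given, lie below 500 for p53-/- libraries 6, 7 and 8 and above 500 for all others.

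A microRNA (miRNA) is a short RNA that pairs with messenger RNAs through its seed, bases 2 to 8, and lowers their output. Each hairpin precursor is cut into a 5p and a 3p arm, and usually 1 arm is loaded into the silencing complex while the other is degraded. The miR-193 and miR-365 hairpins sit in pairs in the genome: Mir193b with Mir365-1, and Mir193a with Mir365-2. In mouse brown fat cells miR-193b and miR-365 were reported to favour differentiation, in human liver cancer cells miR-193b was reported to repress cyclin D1, a driver of the cell cycle, and in human cells miR-365 was reported to repress the cytokine interleukin-6.

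The mature sequences show which members can share targets. RefSeq held all 7 members (build GRCm38.p6), and they are printed 5′ to 3′ with the seed in capitals. The prefix mmu marks mouse and is dropped below.
mmu-miR-365-3p: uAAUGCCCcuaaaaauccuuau
mmu-miR-365-2-5p: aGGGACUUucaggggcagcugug
mmu-miR-365-1-5p: aGGGACUUuugggggcagaugug
mmu-miR-193a-5p: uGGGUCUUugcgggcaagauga
mmu-miR-193b-5p: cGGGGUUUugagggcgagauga
mmu-miR-193a-3p: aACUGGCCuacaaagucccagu
mmu-miR-193b-3p: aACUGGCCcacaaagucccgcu
The 7 members carry 5 different seeds. The miR-193 3p arms share 1 seed and are identical at 19 of 22 bases. Counted from the 5′ end, with miR-193a-3p first, they differ at U9C, A20G and G21C, outside the seed. The miR-193 5p arms are identical at 17 of 22 bases and do not share a seed, since U5G and C6U fall within it (miR-193a-5p first). The miR-365 5p arms share a seed and are identical at 20 of 23 bases. Among the 1679 mature mouse miRNA names with a sequence in that table, 0 others carry any of these 5 seeds.

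The hairpins are shown next, with the mature arms in capitals, because their places fix which counts can be told apart.
Mir193a: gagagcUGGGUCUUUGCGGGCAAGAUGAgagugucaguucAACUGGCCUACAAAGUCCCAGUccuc
Mir365-2: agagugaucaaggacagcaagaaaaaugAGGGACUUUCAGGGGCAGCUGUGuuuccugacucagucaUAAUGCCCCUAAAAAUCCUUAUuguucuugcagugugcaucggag
Mir193b: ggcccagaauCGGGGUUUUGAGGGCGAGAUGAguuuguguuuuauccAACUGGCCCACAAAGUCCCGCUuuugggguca
Mir365-1: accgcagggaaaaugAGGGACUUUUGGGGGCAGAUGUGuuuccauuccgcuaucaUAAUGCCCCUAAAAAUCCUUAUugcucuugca
On GRCm38.p6 the first pair is Mir193a at chr11:79711969-79712034 and Mir365-2 at chr11:79726400-79726511, 14365 bases apart on the plus strand. GENCODE M21 annotates no other gene over either hairpin. The second pair is Mir193b at chr16:13449523-13449601 and Mir365-1 at chr16:13453840-13453926, 4238 bases apart on the plus strand, opposite the minus-strand gene Gm15738 but none of its exons. The 3p arm of miR-365 is the same in both hairpins, and both table entries held the same count in every library, so its reads cannot be assigned to 1 locus. The 5p arms of miR-365 and all arms of miR-193 belong to 1 hairpin each.

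**Figure D1:**
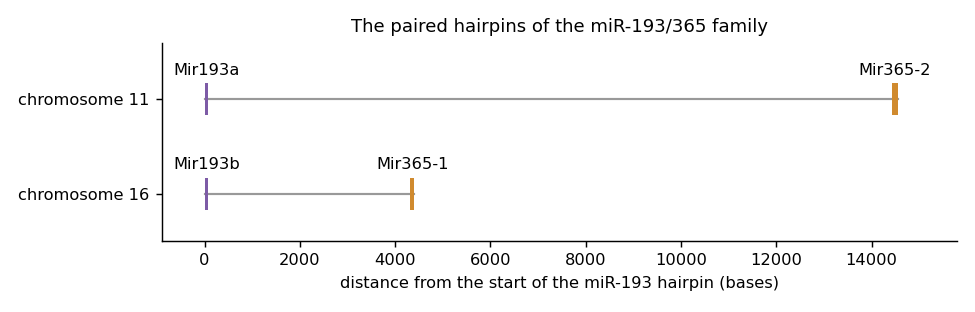
Map of the hairpin pairs on chromosomes 11 and 16, drawn to scale as distance in bases from the start of the miR-193 hairpin of each pair. The hairpins are 14365 bases apart on chromosome 11 and 4238 bases apart on chromosome 16.

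Total counts ran from 1905609 to 6682492 per library, and a count of 0 allows a level of up to 3 counts, or 0.449 to 1.57 CPM (counts scaled to the same total in every library). Levels below are normalised CPM, after TMM scaling in edgeR. They count reads, and sequences differ in how well they are captured in a library, so the order of 2 members is an order of reads. p53+/+ libraries 1 and 2, with 1965468 and 1905609 counts, stood apart from the rest on the first principal component of all tested miRNAs (26.9% of variance), and p53-/- library 6 on the second (16.9%). Of the 388 miRNAs tested, edgeR called 0.258% at an adjusted p of 0.05, which was miR-34a-5p alone, a direct target of p53 that was lower in p53-/- livers. At an unadjusted p under 0.05 it was 32 higher and 35 lower, or 17.3%, and DESeq2 called 7, or 1.82% of those with an adjusted p.

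miR-365-3p was the leading member, and most reads of the family came from it. It held 34852 of the 40959 family counts, or 85.1%, and stood 66th of the 388 tested miRNAs by mean level. The others followed at a distance: miR-193a-5p stood 129th, miR-365-2-5p 240th, miR-193b-3p 272nd and miR-193a-3p 316th. miR-365-3p exceeded miR-193a-5p, and miR-193a-5p exceeded miR-365-2-5p, in 11 of 11 libraries, with ranges that did not overlap. miR-365-2-5p exceeded miR-193b-3p in 11 of 11 libraries too, although their ranges overlapped between libraries. miR-193b-3p and miR-193a-3p were not in a fixed order: miR-193b-3p had more reads in 6 of 6 p53-/- libraries and in 3 of 5 p53+/+ libraries. miR-365-1-5p and miR-193b-5p, with 27 and 26 reads in all, were not separated. The family as a whole made up 0.0734 ± 0.0174% of counts in p53-/- livers (SD, n = 6) and 0.0945 ± 0.0212% in p53+/+ livers (SD, n = 5). The difference of -0.0211 percentage points did not pass (two-sided exact permutation p = 0.0974). It was -0.0267 points without p53-/- library 11 (exact permutation p = 0.0476), -0.0147 without p53+/+ library 1, -0.00939 without p53+/+ libraries 1 and 2, and -0.00849 with only the p53-/- libraries of HA numbers above 500. As a share of counts other than miR-122-5p it was -0.0331 points (exact permutation p = 0.149).

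**Figure D2:**
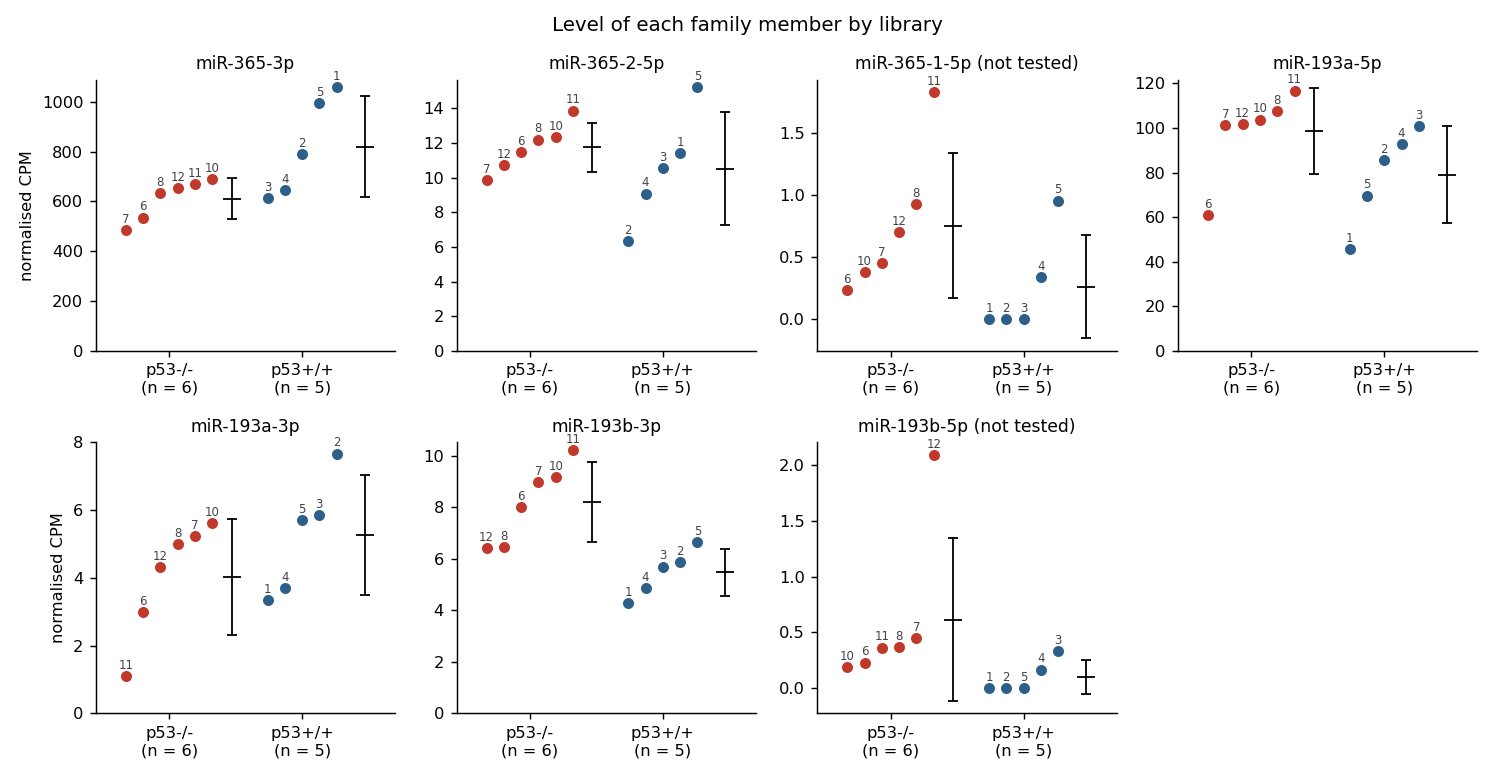
Normalised CPM (y axis, from 0) of each member in the p53-/- and p53+/+ libraries, with the library number above each point and the mean ± SD at the side. miR-365-3p lies at 486 or above in every library and miR-193b-3p at 10.2 or below, and in the 5 tested members the genotypes overlap.

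No member passed the test between genotypes. Of 7 members, 5 passed the filter on low counts and were tested: 3 had values above 0, 2 had values below 0 and 0 were called, against 0.258% of all tested miRNAs. Their log2 fold changes ran from -0.42 to 0.57, with a median of 0.15 against -0.01 over all tested miRNAs. At an unadjusted p under 0.05 there was miR-365-3p below 0 and miR-193b-3p above it, 2 of 5 members against 17.3% of all tested miRNAs. The other 2 members, miR-193b-5p and miR-365-1-5p, were too sparse to test. The ranges of the genotypes overlapped for all 5, while 2.32% of all tested miRNAs had ranges that did not. In bulk liver, fewer cells of a type and less of an RNA per cell cannot be told apart.

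miR-193b-3p, from the chromosome 16 pair, was the member with the smallest p. Its level in p53-/- livers was 6.41 normalised CPM at the lowest, 8.49 at the median and 10.2 at the highest. In p53+/+ libraries 1 to 5 it was 4.29, 5.87, 5.70, 4.88 and 6.66. Of 6 p53-/- libraries, 4 lay above every p53+/+ library, and libraries 8 and 12, at 6.47 and 6.41, lay just under p53+/+ library 5. The means were 8.21 ± 1.54 normalised CPM in p53-/- livers (SD, n = 6) and 5.48 ± 0.92 in p53+/+ livers (SD, n = 5). The fitted log2 fold change of miR-193b-3p was 0.57, with an SE of 0.22 and a 95% interval of 0.09 to 1.05. The adjusted p was 0.190 in edgeR's quasi-likelihood test. An exact permutation test of log2 CPM gave a difference of 0.54, with p = 0.0130 and an adjusted p of 0.187 over all tested miRNAs. These values rest on 9 to 60 reads per library.

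miR-365-3p, the abundant arm that both pairs can give, lay on the other side of 0. In p53-/- livers it was at 486 normalised CPM at the lowest, 643 at the median and 691 at the highest. In p53+/+ libraries 1 to 5 it was at 1060.35, 791, 612, 645 and 994. p53+/+ libraries 1, 2 and 5 were above every p53-/- library, while libraries 3 and 4 lay inside the p53-/- range. The means were 611 ± 81.9 normalised CPM in p53-/- livers (SD, n = 6) and 820.4 ± 201.7 in p53+/+ livers (SD, n = 5). The fitted log2 fold change of miR-365-3p was -0.42, with an SE of 0.18 and a 95% interval of -0.81 to -0.04, and the adjusted p was 0.221 in edgeR. The exact permutation p was 0.0563, for a difference of -0.40. Without p53+/+ libraries 1 and 2, which stood apart from the rest, the log2 fold change was -0.25 (adjusted p = 0.647 in edgeR). The counts behind it were 1752 to 4683 per library.

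miR-193a-5p, the more abundant arm of Mir193a, ran from 61.0 normalised CPM through a median of 102.7 to 117 in p53-/- livers. In p53+/+ libraries 1 to 5 it was at 45.8, 85.7, 100.9, 92.7 and 69.7. All p53-/- libraries but library 6 lay above every p53+/+ library, libraries 7 and 12 narrowly. Library 6 is the one that stood apart on the second principal component, and without it the log2 fold change was 0.42 (adjusted p = 0.288 in edgeR). The means were 98.7 ± 19.4 normalised CPM in p53-/- livers (SD, n = 6) and 78.9 ± 21.8 in p53+/+ livers (SD, n = 5). The fitted value on the log2 scale was 0.32, with an SE of 0.22, a 95% interval of -0.16 to 0.80 and an adjusted p of 0.516 in edgeR. Without p53+/+ library 1 it was 0.18, and without libraries 1 and 2 it was 0.21.

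miR-193a-3p, the arm that shares its seed with miR-193b-3p, had a log2 fold change below 0. It ran from 1.10 normalised CPM through a median of 4.66 to 5.62 in p53-/- livers, and was at 3.34, 7.67, 5.86, 3.70 and 5.71 in p53+/+ libraries 1 to 5. The lowest value was that of p53-/- library 11, with 3 reads. That fold change was -0.34, with an SE of 0.35, a 95% interval of -1.10 to 0.43 and an adjusted p of 0.653 in edgeR. Leaving out p53-/- library 11 made it -0.16, and leaving out p53+/+ library 2 made it -0.22.

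miR-365-2-5p, the 5p arm of Mir365-2, was near 11 normalised CPM in both genotypes. It ran from 9.86 through a median of 11.8 to 13.9 in p53-/- livers, and was at 11.4, 6.32, 10.6, 9.08 and 15.2 in p53+/+ libraries 1 to 5. The p53+/+ libraries lay on both sides of the p53-/- range. Its fitted log2 fold change was 0.15, with an SE of 0.23, a 95% interval of -0.34 to 0.63 and an adjusted p of 0.778 in edgeR. It was -0.011 without p53+/+ library 2, 0.06 without libraries 1 and 2 and 0.30 without library 5.

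miR-193b-5p and miR-365-1-5p, the 5p arms of the chromosome 16 pair, failed the filter. miR-193b-5p had 1, 3, 2, 1, 1 and 15 reads in p53-/- libraries 6, 7, 8, 10, 11 and 12, and 0, 0, 2, 1 and 0 reads in p53+/+ libraries 1 to 5. miR-365-1-5p had 1, 3, 5, 2, 5 and 5 reads in the same p53-/- libraries and 0, 0, 0, 2 and 4 reads in the p53+/+ libraries. Each was seen in 6 of 6 p53-/- libraries and in 2 of 5 p53+/+ libraries. A count of 0 allows up to 1.53 and 1.57 CPM in the shallow p53+/+ libraries 1 and 2, 0.517 CPM in library 3 and 0.674 CPM in library 5. miR-193b-5p was above all these limits in p53-/- library 12, at 2.09 normalised CPM, and below all of them in the other p53-/- libraries. miR-365-1-5p, at 0 in p53+/+ library 3, was above the limit of that library in p53-/- libraries 8, 11 and 12, at 0.924, 1.83 and 0.697 normalised CPM. It was above that limit in p53+/+ library 5 too, at 0.951 normalised CPM. The limits are in CPM without TMM scaling. p53-/- library 11 gave 5 reads of miR-365-1-5p at a depth of 2202415 counts, near that of p53+/+ libraries 1 and 2. With no filter the log2 fold changes were 2.03 (adjusted p = 0.384 in edgeR) and 1.16 (adjusted p = 0.555 in edgeR).

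**Figure D3:**
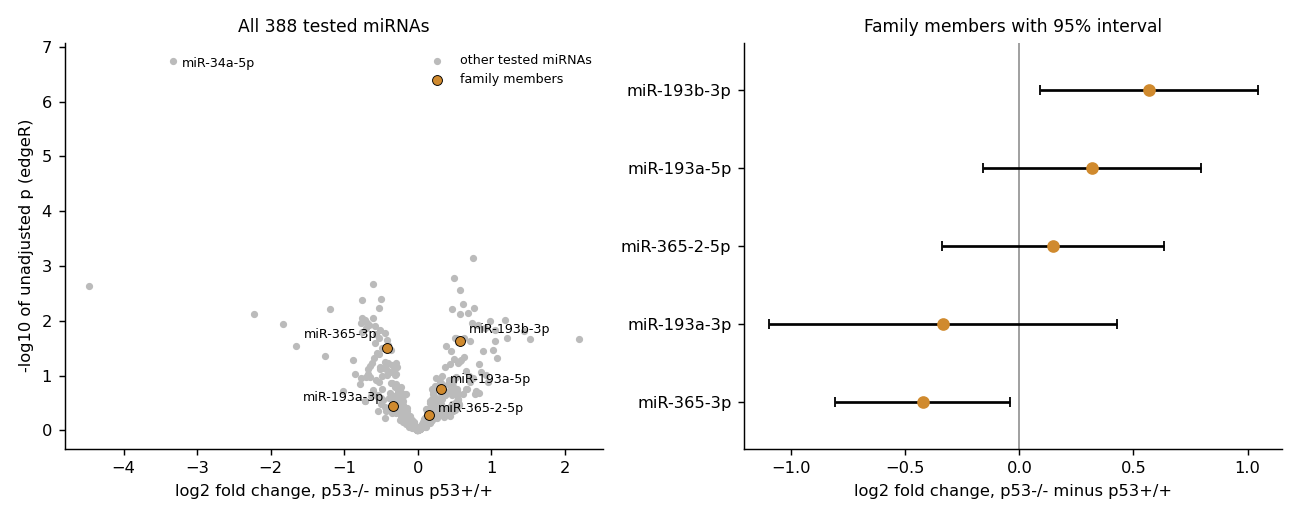
Left, log2 fold change (p53-/- minus p53+/+, x axis) against −log10 of the unadjusted edgeR p (y axis) for the 388 tested miRNAs, family members in orange. Right, the log2 fold change of each tested member with its 95% interval, from 0.57 for miR-193b-3p to -0.42 for miR-365-3p; the intervals of those 2 members leave out 0, but neither passed after adjustment.

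Ratios of members within a library need no scaling between libraries, and 5 were computed as log2 of counts plus 0.5. The ratio of miR-193b-3p over miR-365-3p, an arm that cannot be assigned to 1 locus, is a description. The opposite signs of these members were known from an earlier analysis of the same libraries when the pair was chosen, so no p is given for it. p53-/- libraries had 66.6, 54.2, 97.7, 75.2, 65.6 and 101.8 reads of miR-365-3p per read of miR-193b-3p (libraries 6, 7, 8, 10, 11 and 12). p53+/+ libraries 1 to 5 had 247, 135, 107, 132 and 149. All 6 p53-/- libraries had relatively more miR-193b-3p than all 5 p53+/+ libraries, though p53-/- libraries 8 and 12 came close to p53+/+ library 3. The mean log2 ratio was -6.21 ± 0.35 in p53-/- livers (SD, n = 6) and -7.17 ± 0.43 in p53+/+ livers (SD, n = 5). The difference was 0.96. Over all 75078 pairs of tested miRNAs, 2.51% had log2 ratios whose ranges did not overlap between genotypes. Those pairs were not chosen by sign, so that share does not measure how often a pair chosen as this one was would separate. Without p53+/+ libraries 1 and 2 the difference was 0.77.

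Of the arms with the shared seed, miR-193b-3p gave more reads relative to miR-193a-3p in most p53-/- libraries. The call of this difference rests on an adjustment that counts the ratio of miR-193b-3p over miR-365-3p. miR-193b-3p gave 67.4 ± 12.5% of their summed reads in p53-/- livers (SD, n = 6) and 51.9 ± 5.65% in p53+/+ livers (SD, n = 5). The log2 ratio ran from 0.37 to 3.03 in p53-/- livers and from -0.37 to 0.39 in p53+/+ livers. p53-/- library 8, at 0.37, lay inside the p53+/+ range, and library 11, with 3 reads of miR-193a-3p, was the highest. The difference of 1.03 had a two-sided exact permutation p of 0.0130 over 462 splits and an adjusted p of 0.0325 over the 5 ratios. That adjustment counts the p of miR-193b-3p over miR-365-3p, the pair chosen with its signs known. The sign of miR-193b-3p was known here too. Over the 4 ratios other than miR-193b-3p over miR-365-3p, the adjusted p was 0.0519 (exact permutation), an alternative chosen after the values were seen. With all 5 ratios adjusted, leaving out any 1 p53+/+ library also ended the call, with adjusted p-values from 0.0635 to 0.190 (exact permutation) and differences of 0.91 to 1.10. Without p53-/- library 11 the difference was 0.65 (adjusted p = 0.0397 over all 5 ratios, exact permutation). The adjustment over 4 ratios was not made with libraries left out.

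The remaining ratios did not pass. miR-193a-3p over miR-365-3p differed by -0.07 (exact permutation p = 0.868), and was 0.27 without p53-/- library 11, 0.09 without p53+/+ library 2 and 0.08 without p53+/+ library 3. miR-193a-3p over miR-193a-5p differed by -0.82 (exact permutation p = 0.0649, adjusted p = 0.108), and by -0.45 without p53-/- library 11. miR-365-1-5p over miR-365-2-5p differed by 1.10 (exact permutation p = 0.102, adjusted p = 0.127) and rests on 27 reads of miR-365-1-5p; it was 0.64 without p53+/+ library 3, and 0.25 with 2 counts added in place of 0.5.

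**Figure D4:**
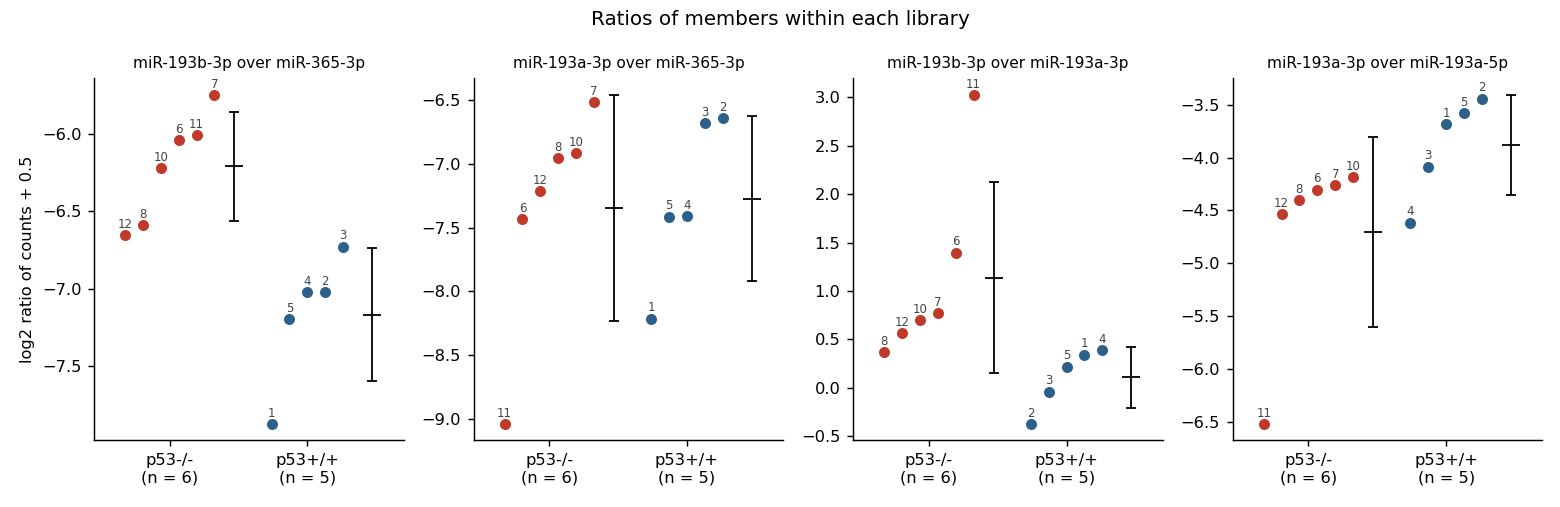
Log2 ratio of counts plus 0.5 (y axis) within each library for the 4 ratios with enough reads, p53-/- libraries left of p53+/+ libraries, library numbers above the points and mean ± SD at the side. For miR-193b-3p over miR-365-3p the p53-/- libraries lie between -6.65 and -5.75, above the p53+/+ libraries at -7.87 to -6.73, and for the other ratios the genotypes overlap.

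Opposite arms led in the miR-193 hairpins. Of the reads of Mir193a, 4.78% (244 of 5106) were miR-193a-3p, so the 5p arm dominated, while of the reads of Mir193b 93.4% were miR-193b-3p, with 366 reads against 26 of miR-193b-5p. The leading arm was the same in every library. The 3p share of Mir193a was 4.02 ± 1.56% in p53-/- livers (SD, n = 6) and 6.38 ± 1.75% in p53+/+ livers (SD, n = 5), and was lowest in p53-/- library 11 and highest in p53+/+ library 2. The lowest was 0.929%, where the Wilson method gave a 95% range of 0.316 to 2.69%, and the highest was 8.21%, with a range of 5.19 to 12.8%. The 3p share of Mir193b was 75.4% in p53-/- library 12 (95% Wilson interval 63.3 to 84.5%) and at least 94.4% in each other library. Intervals cover counting error only.

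For miR-365 the 3p arm dominated, and the 5p arms together gave 1.72% of its reads (609 of 35461). Of those 609 5p reads 95.6% came from Mir365-2 on chromosome 11. The share from Mir365-2 was 88.4% or higher in each library. The share of 5p arms among miR-365 reads was 2.01 ± 0.21% in p53-/- livers (SD, n = 6) and 1.32 ± 0.38% in p53+/+ livers (SD, n = 5). p53-/- libraries ran from 1.72 to 2.29% and p53+/+ libraries from 0.793 to 1.69%, so the ranges did not overlap. The separation rests on miR-365-1-5p, which failed the filter, with 5 reads in p53-/- library 12 and 0 in p53+/+ library 3. Without it the ranges overlapped. Library 12 had 77 reads of miR-365-2-5p beside 4683 of miR-365-3p, and library 3 had 63 beside 3654. Of the 75078 pairs of tested miRNAs, 2.51% had log2 ratios whose ranges did not overlap. Those are pairs of single miRNAs, so that share is not a like background for a sum of 2 arms. The lowest p53+/+ shares, 1.07% and 0.793%, were those of the shallow libraries 1 and 2. The Wilson intervals of the nearest libraries overlapped, at 1.39 to 2.13% in p53-/- library 12 and 1.33 to 2.16% in p53+/+ library 3. The share of 5p arms was chosen after its values were seen and was not tested.

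**Figure D5:**
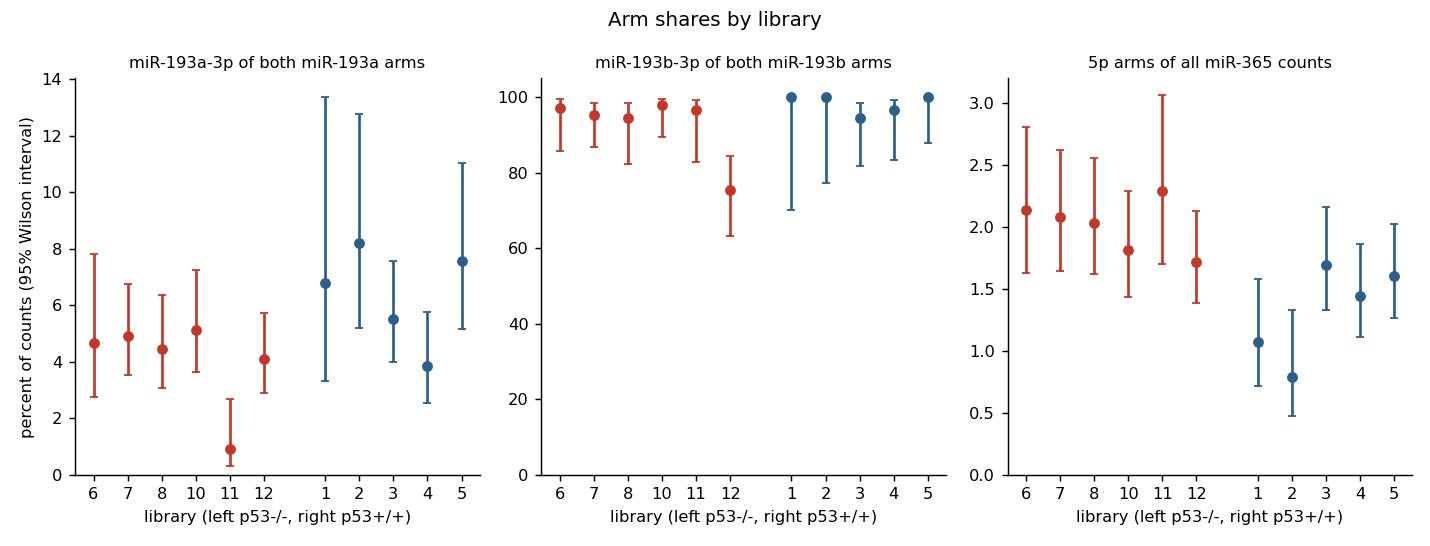
Percent of counts (y axis) with 95% Wilson intervals in each library, p53-/- left and p53+/+ right in each panel. miR-193a-3p gives 0.929 to 8.21% of the miR-193a reads, miR-193b-3p gives 75.4 to 100% of the miR-193b reads, and the 5p arms give 0.793 to 2.29% of the miR-365 reads.

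Correlations between members across libraries did not pass the adjustment. Among the 10 pairs of tested members, none had a Pearson or Spearman correlation of log2 CPM over the 11 libraries with an adjusted permutation p under 0.05. The strongest Pearson r was that of miR-193a-5p with miR-365-3p (r = -0.56, permutation p = 0.0692, adjusted p = 0.393; Spearman rho = -0.25, permutation p = 0.449). It was -0.74 without libraries 1 and 6, the farthest from the median of miR-193a-5p, and -0.41 after the genotype means were taken out. Within the 6 p53-/- libraries its sign was the other way, at r = 0.51 (exact permutation p = 0.253) and rho = 0.66. miR-193b-3p and miR-365-3p had r = -0.51 (permutation p = 0.113) and rho = -0.22 (permutation p = 0.520), with r = -0.33 without libraries 1 and 11 and r = -0.06 after the genotype means were taken out. The arms of Mir193a, miR-193a-5p and miR-193a-3p, had r = -0.00294 (permutation p = 0.992) and rho = -0.05 (permutation p = 0.880), with r = -0.53 without libraries 1 and 6. miR-365-3p and the 5p arm miR-365-2-5p had r = 0.17 (permutation p = 0.616) and rho = 0.29 (permutation p = 0.385), with r = 0.26 without libraries 2 and 5. After the genotype means were taken out this pair had r = 0.49 (permutation p = 0.123, adjusted p = 0.780) and rho = 0.72, and within the 6 p53-/- libraries r = 0.72 (exact permutation p = 0.121) and rho = 0.77.

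Among 251 tested miRNAs with a mean of at least 10 normalised CPM, those with the pattern over the 11 libraries most like each 3p arm were ranked by Spearman rho of log2 CPM, as a description that includes any shared difference between genotypes. For miR-193b-3p they were miR-664-5p (rho 0.75), miR-744-5p (0.73) and miR-501-3p (0.73). For miR-365-3p they were miR-186-5p (0.84), miR-5115 (0.80) and miR-362-5p (0.78). For miR-193a-3p, measured on 3 to 35 reads per library, they were miR-24-3p (0.81), miR-340-3p (0.77) and miR-106b-5p (0.76).

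Other miRNAs reported in brown or beige fat cells of mouse or human, besides the family, were taken as a list of 18 arms. Of these 17 were tested and 0 were called, against 0.258% of all tested miRNAs. Values below 0 were found for 14 and above 0 for 3, against 198 of all 388 tested miRNAs below 0. The median log2 fold change was -0.28 against -0.01 over all tested miRNAs. The list holds both arms of miR-455 and of miR-378a, and related forms such as miR-26a-5p and miR-26b-5p, so its entries are not all separate. It was not sorted by reported role, so a shared direction has no single meaning. It was chosen with earlier results of these data known, and its direction was not tested. The smallest p-values were those of miR-30c-5p, at -0.51, and miR-26b-5p, at -0.61 (adjusted p = 0.174 for both in edgeR).

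All 7 hepatocyte markers looked for, miR-122-5p among them, had reads. Their summed level was 488221 to 845605 normalised CPM in p53-/- livers and 507597 to 707051 in p53+/+ livers, with a median log2 fold change of 0.10. Most of that sum was miR-122-5p, with means of 600277 normalised CPM in p53-/- livers and 535900 in p53+/+ livers. The other marker lists had 0 arms called and medians of 0.08 for erythroid (4 arms tested), 0.11 for leukocyte (6), -0.27 for endothelial (2), -0.15 for stellate and mesenchymal (5), -0.59 for biliary and epithelial (5), -0.78 for striated muscle (2) and -3.35 for pancreas miRNAs (2). The 2 arms of smallest p in each list had log2 fold changes of -0.52 (miR-194-5p) and 0.19 (miR-122-3p) for hepatocyte, -0.49 (miR-451a) and 0.37 (miR-486-5p) for erythroid, and 0.68 (miR-150-5p) and -0.57 (miR-146a-5p) for leukocyte miRNAs. They were -0.40 (miR-126-5p) and -0.13 (miR-126-3p) for endothelial, -0.35 (miR-145a-5p) and 0.30 (miR-214-3p) for stellate and mesenchymal, and -1.20 (miR-429-3p) and -1.83 (miR-141-3p) for biliary and epithelial miRNAs. For striated muscle they were -1.02 (miR-133a-3p) and -0.55 (miR-1a-3p), and for pancreas -4.47 (miR-217-5p) and -2.22 (miR-375-3p). The summed pancreas markers were 6.74 to 27.5 normalised CPM in p53-/- libraries and 2.86 to 410.2 in p53+/+ libraries. In p53+/+ libraries 1 to 5 the sums were 2.86, 88.0, 84.3, 17.3 and 410.2. The levels of miR-365-3p in the same libraries were 1060.35, 791, 612, 645 and 994 normalised CPM, and no relation was computed. The part of these cell types in the values of the family was not tested.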

How the data were processed

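Liver RNA (50 mg of tissue, Trizol, DNA digestion, column) was sequenced after library preparation with what the labels call an Illumina DNA sample kit. The authors deposited raw counts for each mature miRNA of each hairpin. The submitters' processing notes give the build GRCm38 and the tool limma. Aligner, counter and strand handling were not given in the sources used here. They also deposited a table in CPM scaled over all 1418 entries, used here only as an alternative. The deposited counts per library equalled those of the series table (0 differing values). Each of the 1281 names was counted once, with its highest count over hairpins.

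Genotypes were compared by the quasi-likelihood test of edgeR 4.0.16 (R 4.3.3, TMM, filterByExpr, Benjamini-Hochberg over the 388 miRNAs tested), checked on simulated counts. Fold changes are p53-/- minus p53+/+ and SEs come from the F statistic. Log2 CPM used a prior count of 2. Single values were tested by exact permutation over 462 splits (scipy 1.17.1), and correlations with 100000 permutations. The p of the ratio of miR-193b-3p over miR-365-3p is not given, but it entered the adjustment over the 5 ratios. Members, lists and tests were chosen with earlier results of these data known. Named miRNAs are all members, the 3 most alike to each 3p arm, the 2 of smallest p in each list, and miR-34a-5p as the check of the labels. Alternatives were RLE or no scaling factors, miR-122-5p left out, other filters, the lowest hairpin count, DESeq2 1.42.0, limma 3.58.1 with voom or on the deposited CPM plus 1, 2 counts added to ratios, libraries left out, ratios adjusted without miR-193b-3p over miR-365-3p (added after seeing the data), and only p53-/- libraries of HA numbers above 500. Mature and hairpin sequences came from RefSeq.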

Additional observations from a re-analysis of the deposited data

Results flagged for a closer look

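Of 26 groups of values looked at, 4 held a library far from the others of its genotype by Dixon's criterion. Chance alone meets it in about 1 group in 20 where values are normal and groups independent. Sparse counts and ratios that share a member are not, so 4 cannot be read as an excess. miR-193a-5p was lowest among the p53-/- livers in library 6, at 61.0 normalised CPM against 101 to 117 in the others. miR-193b-5p was highest in p53-/- library 12, at 2.09 normalised CPM on 15 of the 23 reads of that genotype. The log2 ratios of miR-193a-3p over miR-365-3p and over miR-193a-5p were lowest in p53-/- library 11, at -9.04 and -6.52, where miR-193a-3p had 3 reads. The causes were not tested.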

How the results depend on the processing

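No tested member passed under any of its 22 alternatives, and miR-193a-5p, miR-193a-3p, miR-193b-3p and miR-365-3p kept their sign in all of them. The log2 fold change of miR-193b-3p ran from 0.46 to 0.63 and that of miR-365-3p from -0.57 to -0.25. For miR-365-2-5p it ran from -0.011 (without p53+/+ library 2) to 0.30 with a library left out. edgeR and limma called 1 miRNA under each alternative and DESeq2 called 7. The difference in the ratio of miR-193b-3p over miR-365-3p ran from 0.77 to 1.07 under 15 alternatives. Without p53+/+ libraries 1 and 2 it was 0.77, and that of miR-193b-3p over miR-193a-3p was 0.95 (adjusted p = 0.327 by exact permutation). That setting leaves 84 splits and a smallest possible exact permutation p of 0.0119. For 1 ratio of 5 alone at this smallest value the adjusted p is 0.0595, so such a ratio could not pass. With the adjustment over 4 ratios, chosen after seeing the data, the difference of 1.03 for miR-193b-3p over miR-193a-3p had an adjusted p of 0.0519 (exact permutation). With a library left out, the differences ran from 0.65 to 1.18 for miR-193b-3p over miR-193a-3p, from -0.31 to 0.27 for miR-193a-3p over miR-365-3p, and from -0.0273 to -0.0147 percentage points for the family share. The cause was not tested. No paired analysis was possible because the genotypes share no replicate number. Low read numbers limit the precision of miR-193b-5p, miR-365-1-5p and miR-193a-3p.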
